A study of Mus musculus with 4 samples.

Results

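Pericytes and smooth muscle cells are the mural cells that wrap blood vessels, and the 10 genes described here are commonly used to recognise them. They were chosen by gene symbol from a list of names, and all 10 were found among the 24421 genes of the expression matrices. Of these, 6 belong to the contractile and cytoskeletal apparatus of smooth muscle (Acta2, Tagln, Myh11, Cnn1, Myl9 and Des), and the others (Rgs5, Pdgfrb, Notch3 and Kcnj8) encode receptors, a G protein regulator and an ion channel subunit typical of pericytes. Poly(A) RNA was sequenced from the epididymal adipose tissue, a visceral fat depot, of wild-type male C57BL/6J mice on high-fat diet (HFD). The weight-cycling group (WC1) entered the protocol at 8 weeks of age and received HFD for 8 weeks, standard diet for 2 weeks and then HFD for 6 weeks. The control group (Ctrl) began HFD at 10 weeks of age and had no interval of standard diet afterwards, so that both groups spent 14 weeks on HFD in all and reached 24 weeks of age. Each group had 2 libraries of 61465029 to 90965297 reads. The labels do not say whether a library came from 1 mouse or from several, and p-values here measure only the spread between these libraries, which may be technical.

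In a vessel wall, smooth muscle contracts when calcium activates the kinase that phosphorylates the regulatory light chain of myosin, which then pulls on filaments of smooth muscle actin. Pericytes sit on capillaries, are recruited by platelet-derived growth factor B released from endothelium, depend on Notch signals between endothelium and mural cells, and set their membrane potential in part through ATP-sensitive potassium (K-ATP) channels. In adipose tissue mural cells accompany the dense capillary bed around adipocytes, and some of these genes are shared with other cells: Acta2 and Tagln also mark myofibroblasts, and Pdgfrb is also found in fibroblasts and adipocyte progenitors. In tissue RNA, a change in the number of mural cells and a change in RNA per cell cannot be told apart.

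Of the 10 genes, 6 were higher in WC1 than in Ctrl at an adjusted p under 0.05 in limma: Rgs5, Acta2, Kcnj8, Notch3, Myh11 and Myl9. No member passed in the other direction, in limma, edgeR or DESeq2, and 0 had an unadjusted p under 0.05 with a lower level in WC1 in any of the 3 tools. Of the 14106 genes tested, limma called 17.9%, with 10.2% higher and 7.71% lower. By edgeR 6 members were higher, beside 10.5% of all genes (7.14% lower), by DESeq2 7 members, beside 15.1% (12.3% lower), and by limma on the TPM matrix 7 members, beside 14.6%. The mean was at least 2-fold higher in 3 members, Rgs5, Kcnj8 and Acta2, and in 5.16% of all tested genes. Among the 4 members that were not called, Tagln and Des lay somewhat above Ctrl, Pdgfrb overlapped between groups in CPM and Cnn1 lay slightly below. The WC1 libraries lay above both Ctrl libraries in 8 members, as they did in 32.7% of all tested genes, and below both in 1 member, as in 36.6% of all genes, so that 69.3% of all genes did not overlap between groups. Over the 10 members the median log2 fold change was 0.82, against -0.02 over all tested genes, where a fold change is the difference WC1 minus Ctrl of log2(CPM + 1) and CPM is the reads of a gene divided by a library size that the authors rescaled.

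**Figure D1:**
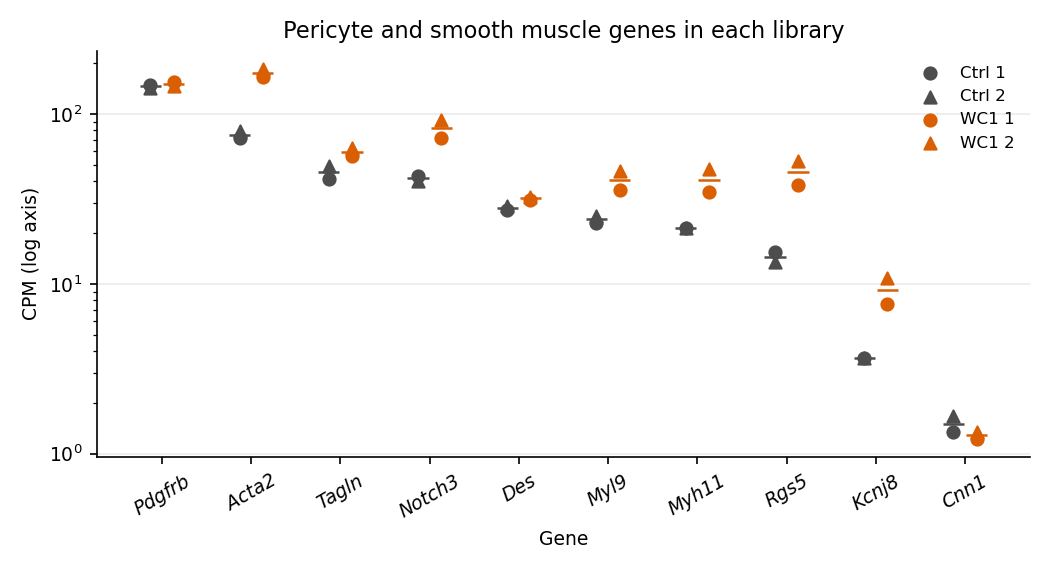
Level of each member in each library, in CPM on a log axis, with genes ordered by their Ctrl mean, where circles and triangles are libraries 1 and 2 of Ctrl (grey) and WC1 (orange) and short lines are means of the 2 libraries. Both WC1 symbols lie above both Ctrl symbols in 8 genes, the symbols of Pdgfrb are interleaved near 150, and those of Cnn1 lie between 1.23 and 1.67 CPM.

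The starts of some of these genes are shown because smooth muscle genes are classically controlled by serum response factor (SRF), which binds a 10-base element called the CArG box. The RefSeq table of promoters (GRCm38, the assembly also called mm10) held 7 of the 10 members: Acta2, Cnn1, Myl9, Des, Rgs5, Notch3 and Kcnj8. In the 250 bases before the annotated start, a CArG box was found in 1 of these, Myl9. A CArG-like box, with 1 of the 6 core positions allowed to be G or C, was looked for after that, because known elements of smooth muscle genes can be of this kind, and boxes of either kind were found in Acta2 and Myl9. On both strands and over 32851 promoters of the same length, 1.47% held a CArG box and 8.59% held a box of either kind. The letters GTGGGAA, bound by the Notch effector RBPJ, were in 0 of the 7 windows and in 5.42% of all promoters. A match is a description of the letters and does not show binding, and a window without a match says nothing about the factor. Both Acta2 boxes lie inside a first exon of the GENCODE annotation, and only 30 bases are shown of each. Capitals mark the boxes, and each sequence is written 5′ to 3′ on the strand of its gene.
The first Acta2 box begins 84 bases before the RefSeq start, and its surroundings on the minus strand are chr19:34255438-34255467.
Acta2 box 1: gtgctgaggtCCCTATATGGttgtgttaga
The next Acta2 box begins 34 bases before the start, at chr19:34255388-34255417 on the minus strand.
Acta2 box 2: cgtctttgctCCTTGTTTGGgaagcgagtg
Myl9, shown for its boxes at 161 and 99 bases before the start, is given from chr2:156775214-156775419 on the plus strand.
Myl9: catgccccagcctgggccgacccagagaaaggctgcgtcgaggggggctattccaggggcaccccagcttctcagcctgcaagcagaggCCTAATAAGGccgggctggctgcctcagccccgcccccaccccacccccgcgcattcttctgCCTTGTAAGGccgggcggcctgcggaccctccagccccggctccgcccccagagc
Rgs5, shown as the member with the largest difference, is given from chr1:169655251-169655500 on the plus strand.
Rgs5: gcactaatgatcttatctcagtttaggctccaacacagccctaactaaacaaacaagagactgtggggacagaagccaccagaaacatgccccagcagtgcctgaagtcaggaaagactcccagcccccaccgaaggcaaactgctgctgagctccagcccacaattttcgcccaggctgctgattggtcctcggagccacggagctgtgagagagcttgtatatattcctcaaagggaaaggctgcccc
Cnn1, shown as a contractile gene that was not higher, is given from chr9:22099003-22099215 on the plus strand.
Cnn1: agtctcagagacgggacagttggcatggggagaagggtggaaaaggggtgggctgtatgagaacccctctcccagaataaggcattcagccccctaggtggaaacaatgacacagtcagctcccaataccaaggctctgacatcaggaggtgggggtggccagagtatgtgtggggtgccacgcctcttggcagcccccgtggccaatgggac

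Among the 6 contractile members, Acta2, which encodes alpha smooth muscle actin, the actin of the thin filaments, had the largest difference. The gene lies on the minus strand of chromosome 19 (chr19:34241090-34255590, mm10). It stood at 71.7 and 79.0 CPM in the Ctrl pair and at 165 and 183 CPM in the WC1 pair. Both WC1 libraries were more than 2 times either Ctrl library, and the libraries of each group lay close together. The mean rose 2.31-fold, from 75.3 ± 5.1 to 174 ± 13 CPM (SD, n = 2 per group). On the log2 scale this was 1.19 ± 0.09 (SE, as in all log2 values given with an error), and the limma adjusted p was 0.0088. Of all tested genes, 1.11% had a larger log2 fold change.

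Both smooth muscle myosin chains among the members rose too. Myh11, the smooth muscle myosin heavy chain (chr16:14194535-14291372, minus strand), stood at 21.4 and 21.2 CPM in the Ctrl pair and at 34.6 and 47.5 CPM in the WC1 pair. The Ctrl libraries were nearly equal, whereas WC1 2 was 1.37 times WC1 1. Expressed as log2 values, Myh11 rose by 0.90 ± 0.16 (limma adjusted p = 0.028). Myl9, the regulatory light chain that is phosphorylated to start contraction (chr2:156775420-156781658, plus strand), stood at 22.8 and 25.1 CPM in the Ctrl pair and at 35.5 and 46.4 CPM in the WC1 pair. The groups did not overlap, and again WC1 2 was the higher of its pair. Its difference on the log2 scale was 0.74 ± 0.14 (limma adjusted p = 0.033). Without a filter on low values, where more genes were tested, the limma adjusted p was 0.053 for Myh11 and 0.059 for Myl9.

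The other contractile members were not called. Tagln encodes transgelin (SM22 alpha), an actin-binding protein, and lies on the minus strand at chr9:45929619-45936058. It stood at 41.5 and 49.0 CPM in the Ctrl pair and at 56.2 and 63.1 CPM in the WC1 pair. The groups did not overlap, but the Ctrl libraries differed from each other by about as much as the gap between the groups. The log2 fold change was 0.39 ± 0.11 with an unadjusted 95% interval of 0.11 to 0.68 and a limma adjusted p of 0.068. The call was gained with DESeq2 (adjusted p = 0.022) and in limma on the TPM matrix (0.048), as well as without WC1 1 (limma, 0.022), but not with edgeR (0.065). Tagln shares 108 bases with Pcsk7 on the opposite strand, which stood between 33.5 and 35.6 CPM in the 4 libraries, and 3627 bases with the antisense gene Gm48529, which had no values, so reads cannot be told apart there if strand was not used in counting.

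Des encodes desmin, the intermediate filament of muscle cells, which pericytes also make (chr1:75360329-75368579, plus strand). It stood at 27.1 and 28.6 CPM in the Ctrl pair and at 31.3 and 32.5 CPM in the WC1 pair. All 4 libraries lay within a narrow range, with WC1 on the upper side. The log2 fold change was 0.19 ± 0.08 with an unadjusted 95% interval of -0.01 to 0.38 (limma adjusted p = 0.14). Cnn1 encodes calponin 1, which binds actin and restrains actomyosin in differentiated smooth muscle (chr9:22099216-22109630, plus strand). It stood at 1.35 and 1.67 CPM in the Ctrl pair and at 1.23 and 1.33 CPM in the WC1 pair. It was the least abundant member, with 75 to 145 reads per library, and WC1 lay just below Ctrl. The log2 fold change was -0.13 ± 0.13, with an unadjusted 95% interval of -0.48 to 0.21 (limma adjusted p = 0.51). The ratio of Acta2 to Cnn1 in TPM, which is corrected for transcript length, was 41.2 and 36.7 in the Ctrl pair and 104 and 107 in the WC1 pair.

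Among the pericyte genes, Rgs5 had the largest difference of all members. It encodes a GTPase-activating protein that shortens signals of G protein-coupled receptors, and it lies at chr1:169655501-169695813 on the plus strand. Rgs5 stood at 15.3 and 13.5 CPM in the Ctrl pair and at 37.9 and 53.1 CPM in the WC1 pair. Every WC1 library was more than 2 times any Ctrl library, with WC1 2 again above WC1 1. The mean rose 3.16-fold, from 14.4 ± 1.3 to 45.5 ± 10.7 CPM (SD, n = 2 per group). The corresponding log2 difference was 1.58 ± 0.18, and the limma adjusted p was 0.015. It ranked 37 of 14106 genes when ordered from the highest log2 fold change.

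Kcnj8 encodes Kir6.1, the pore of the vascular K-ATP channel (chr6:142564837-142571614, minus strand). It stood at 3.67 and 3.67 CPM in the Ctrl pair and at 7.64 and 10.9 CPM in the WC1 pair. The control values were almost identical, whereas WC1 2 was 1.42 times WC1 1, the widest spread within WC1 among the members. On the log2 scale Kcnj8 rose by 1.12 ± 0.18 (limma adjusted p = 0.024). Abcc9, which encodes the regulatory subunit SUR2 of the same channel, moved alongside it, from 17.1 ± 0.2 to 36.6 ± 8.6 CPM (log2 fold change 1.04 ± 0.17, limma adjusted p = 0.024). The ratio of Kcnj8 to Abcc9 in TPM was 0.744 and 0.734 in the Ctrl pair and 0.841 and 0.857 in the WC1 pair. The subunits of the pancreatic channel were close to absent, with 0 to 2 reads per library for Kcnj11 and 0 to 7 reads for Abcc8.

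Notch3, the Notch receptor of mural cells, lies on the minus strand at chr17:32120820-32166852. It stood at 43.1 and 40.4 CPM in the Ctrl pair and at 72.4 and 91.6 CPM in the WC1 pair. The groups were well separated, and the controls were close to each other. In log2 units Notch3 rose by 0.95 ± 0.13 (limma adjusted p = 0.019). An annotated antisense gene, Gm17276, overlaps it over 21024 bases and had no values of its own in the matrices, so reads of either strand may have been counted for Notch3 if strand was not used.

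Pdgfrb did not follow the others. It encodes the receptor by which platelet-derived growth factor B recruits pericytes, and it lies on chromosome 18 (chr18:61045150-61085061, plus strand). It stood at 148 and 142 CPM in the Ctrl pair and at 154 and 145 CPM in the WC1 pair. The groups overlapped in CPM. The log2 fold change was 0.05 ± 0.07, with an unadjusted 95% interval of -0.14 to 0.23 (limma adjusted p = 0.66). In TPM, where the median of all genes was also higher, Pdgfrb stood at 52.3 and 50.7 in the Ctrl pair and at 59.5 and 57.8 in the WC1 pair without overlap, and its log2 fold change was 0.19 ± 0.06 (limma, unadjusted p = 0.034, adjusted p = 0.10). The ratio of Rgs5 to Pdgfrb in TPM was 0.309 and 0.283 in the Ctrl pair and 0.734 and 1.09 in the WC1 pair. Pdgfrb thus made up 63.8% and 64.9% of the summed TPM of the 4 pericyte genes in Ctrl and 46.0% and 37.0% in WC1.

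**Figure D2:**
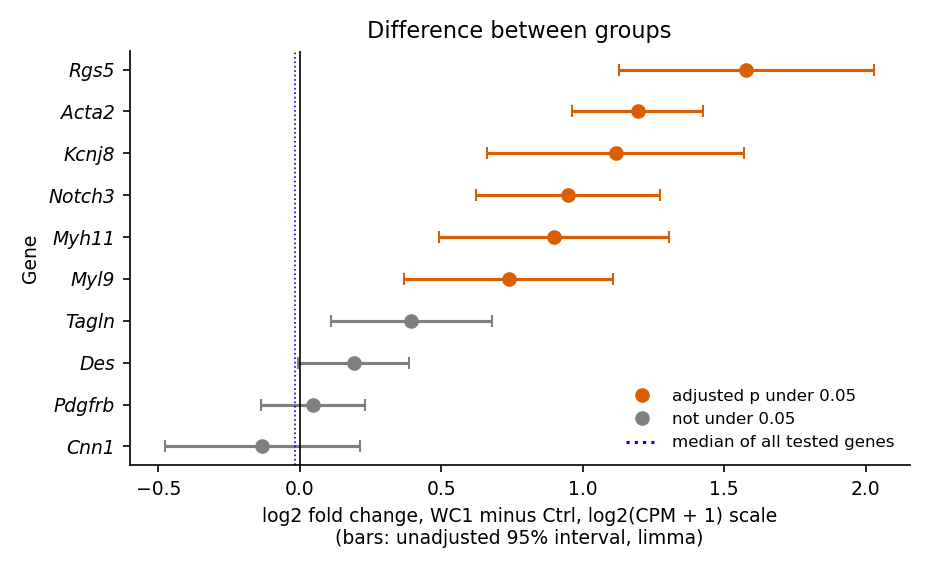
Log2 fold change of each member, WC1 minus Ctrl on the log2(CPM + 1) scale, with unadjusted 95% intervals from limma (n = 2 per group), where orange genes had an adjusted p under 0.05, grey genes did not, and the dotted line is the median of all tested genes. The orange genes run from Myl9 at 0.74 to Rgs5 at 1.58, and the grey genes from Cnn1 at -0.13 to Tagln at 0.39.

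The calls rested on both control libraries. Without Ctrl 1, limma called 0 members and 0.0142% of all genes higher, and the adjusted p of the 6 genes lay between 0.11 and 0.22. Without Ctrl 2, limma called 0 members and 0.0425% of all genes higher, and the adjusted p lay between 0.089 and 0.15. In both cases all 6 genes had an unadjusted p under 0.05 in limma, as did 10.7% and 12.9% of all genes in the same direction, and the log2 fold changes of the 6 ranged from 0.67 to 1.66 and from 0.80 to 1.49. Without WC1 1, limma called 7 members and 17.2% of all genes higher, and without WC1 2 it called 6 members and 10.1% of all genes.

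Levels of different genes were compared in TPM. In Ctrl the order was Acta2 (56.3 TPM), Tagln (54.8), Pdgfrb (51.5), Myl9 (42.5), Des (17.5), Rgs5 (15.3), Notch3 (10.1), Myh11 (6.19), Kcnj8 (3.21) and Cnn1 (1.45), as means of 2 libraries. The ranges of Acta2 and Tagln overlapped, as did those of Tagln and Pdgfrb. In WC1 the order was Acta2 (143 TPM), Myl9 (80.2), Tagln (79.7), Pdgfrb (58.7), Rgs5 (53.4), Des (22.0), Notch3 (21.9), Myh11 (13.2), Kcnj8 (8.98) and Cnn1 (1.36). There the ranges of Myl9 and Tagln, of Pdgfrb and Rgs5, and of Des and Notch3 overlapped. Acta2 thus stood apart from the next gene in WC1 but not in Ctrl, and its share of the summed TPM of the 6 contractile genes was 31.7% and 31.3% in the Ctrl pair and 43.1% and 41.3% in the WC1 pair. The sum of the contractile genes divided by the sum of the pericyte genes was 2.05 and 2.43 in the Ctrl pair and 2.39 and 2.37 in the WC1 pair, so the groups overlapped in this ratio.

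WC1 2 was above WC1 1 in CPM in 9 of the 10 members, all but Pdgfrb, compared to 45.2% of all tested genes. Among the 6 called members WC1 2 was between 1.11 and 1.42 times WC1 1, whereas Ctrl 2 was between 0.881 and 1.10 times Ctrl 1. WC1 2 was also above WC1 1 in 8 of 8 endothelial, 7 of 7 adipocyte and 6 of 6 mesothelial markers, but in 1 of 7 macrophage and 0 of 8 fibroblast markers, and the part of this difference between libraries in the results was not tested.

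Close relatives of the members were examined because reads can be shared between similar sequences. Acta1, the skeletal muscle actin, stood at 5.76 and 8.10 CPM in the Ctrl pair and at 17.2 and 16.4 CPM in the WC1 pair (log2 fold change 1.18 ± 0.16, limma adjusted p = 0.020). Muscle actins have nearly the same coding sequence, so the level of Acta1 beside a far more abundant Acta2 is uncertain. Acta1 was between 0.0803 and 0.104 times Acta2 in the 4 libraries. The sum of Acta2, Acta1, Actg2 and Actc1 was 79.0 and 89.3 CPM in the Ctrl pair and 183 and 201 CPM in the WC1 pair, a 2.28-fold rise of the mean. Acta2 made up 88.5% to 91.2% of this sum, so the rise of the sum had to lie near the 2.31-fold of Acta2 alone. Actg2, the enteric smooth muscle actin, stood between 0.969 and 1.46 CPM and was not called.

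Of the 14 relatives tested, 3 were called higher in limma, beside 10.2% of all tested genes. These were Acta1 and the nonmuscle myosin heavy chains Myh10 (log2 fold change 0.77 ± 0.09) and Myh14 (1.27 ± 0.23). The nonmuscle myosin Myh9 had a log2 fold change of 0.12. The cytoplasmic actins Actb (-0.29) and Actg1 (-0.29), the transgelins Tagln2 (-0.51) and Tagln3 (-0.08), the calponins Cnn2 (0.005) and Cnn3 (0.01), the light chains Myl12a (0.20) and Myl12b (-0.11), and vimentin (Vim, -0.23) did not pass. Actc1, the cardiac actin, was below the filter, with 0.270 to 0.747 CPM.

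The rest of the contractile apparatus was described with a list of 20 genes. Of these, 8 were called higher in WC1 and 0 lower in limma, with 1 gene lower at an unadjusted p under 0.05. DESeq2 called 9 higher and 1 lower, and edgeR called 8 higher and 0 lower. Beside this and the following lists, limma called 10.2% of all tested genes higher and 7.71% lower. The shares were 10.5% and 7.14% by edgeR and 15.1% and 12.3% by DESeq2. The median log2 fold change was 0.27, compared to -0.02 over all tested genes. The smallest p values belonged to Synpo2, an actin-binding protein of the Z-disc and of stress fibres, and to Lmod1, the leiomodin that nucleates actin filaments in smooth muscle. Synpo2 stood at 39.1 and 50.9 CPM in the Ctrl pair and at 103 and 114 CPM in the WC1 pair, and Lmod1 at 2.44 and 2.42 CPM in the Ctrl pair and at 4.77 and 5.10 CPM in the WC1 pair. Their log2 fold changes were 1.26 ± 0.14 and 0.79 ± 0.11 (limma adjusted p = 0.015 and 0.020). The other called genes, named because they passed, were smoothelin (Smtn, 0.73), beta-tropomyosin (Tpm2, 0.54), Ldb3 (0.85), synemin (Synm, 0.43), nexilin (Nexn, 0.89) and palladin (Palld, 0.48). Mylk, the kinase that phosphorylates Myl9, stood at 49.9 and 61.7 CPM in the Ctrl pair and at 82.7 and 127 CPM in the WC1 pair and did not pass (limma adjusted p = 0.057). The gene lower at an unadjusted p under 0.05 was Pgm5 (log2 fold change -0.63, limma adjusted p = 0.055). The others that were not called were Pdlim3 (0.29), Csrp1 (0.26), Cald1 (0.21), Vcl (0.20), Pdlim7 (0.08), Myl6 (-0.13), Actn1 (-0.16), Flna (-0.16), Actg2 (-0.16) and Tpm1 (-0.17).

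RNA levels of SRF, its coactivators and related factors were described with 9 genes, and control of the members by SRF was not tested. None of the 8 tested passed in limma, with 0 higher and 1 lower at an unadjusted p under 0.05, edgeR called 0 and DESeq2 called 1 lower. Srf stood between 49.1 and 53.3 CPM in the 4 libraries, with a log2 fold change of -0.04 ± 0.07. The coactivator Mrtfa (log2 fold change -0.25 ± 0.11, limma adjusted p = 0.16) and the LIM protein Fhl2 (-0.48 ± 0.13, limma adjusted p = 0.063) had the smallest p values. Fhl2 passed with DESeq2 (adjusted p = 0.018), and without WC1 1 both passed in limma (0.0085 for Fhl2 and 0.016 for Mrtfa). Myocd, the smooth muscle coactivator of SRF, was below the filter with 10 to 14 reads per library.

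Signalling and channel genes of smooth muscle contraction were described with 18 genes, of which 16 were tested, 5 were called higher and 1 lower in limma. DESeq2 called 7 higher and 2 lower, and edgeR called 4 higher and 1 lower. Itpr1, the receptor that releases stored calcium, stood at 36.7 and 35.7 CPM in the Ctrl pair and at 55.4 and 68.2 CPM in the WC1 pair (log2 fold change 0.75 ± 0.11, limma adjusted p = 0.023). Ednra, the endothelin receptor that constricts vessels, went the other way. It fell from 26.8 and 21.8 CPM in Ctrl to 13.2 and 12.6 CPM in WC1 (log2 fold change -0.86 ± 0.12, limma adjusted p = 0.020). The other called genes were the L-type calcium channel Cacna1c (0.82), both subunits of the nitric oxide receptor guanylate cyclase (Gucy1a1 with 0.88 and Gucy1b1 with 0.41) and Ppp1r14a (0.61), an inhibitor of myosin phosphatase. The median of the list was 0.31.

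Relatives of Rgs5 and the K-ATP subunits formed a list of 7, of which 5 were tested and 4 were called higher in limma and DESeq2 and 3 in edgeR, with a median log2 fold change of 0.77. Rgs4, a close relative of Rgs5, stood at 7.50 and 7.13 CPM in the Ctrl pair and at 20.2 and 22.9 CPM in the WC1 pair (log2 fold change 1.44 ± 0.10, limma adjusted p = 0.0088). Rgs3 (0.77) and Rgs16 (0.62) were also higher, as was Abcc9, whereas Rgs2 had a log2 fold change of -0.27 and was not called.

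Around Pdgfrb, the ligands and the sister receptor were listed. Of these 5 genes, limma, edgeR and DESeq2 each called 1 higher and 1 lower. Pdgfa (log2 fold change 0.08) and Pdgfc (-0.20) were not called in limma. Pdgfb, the ligand made by endothelium, stood between 68.3 and 79.8 CPM with overlapping groups and a log2 fold change of 0.001. Pdgfd, another ligand of the receptor, rose from 5.75 and 5.30 CPM to 8.85 and 8.93 CPM (log2 fold change 0.60 ± 0.10, limma adjusted p = 0.026), and its call was lost without a filter on low values (0.055). Pdgfra, the receptor of fibroblasts and adipocyte progenitors, fell from 101 and 96.6 CPM to 70.1 and 60.2 CPM (log2 fold change -0.59 ± 0.09, limma adjusted p = 0.024).

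Around Notch3, 7 of 13 Notch pathway genes were called higher in limma and 0 lower, with 2 lower at an unadjusted p under 0.05. DESeq2 called 7 higher and 1 lower, and edgeR called 6 higher and 0 lower. The median log2 fold change was 0.49. The ligand Dll4, made by endothelial cells, stood at 8.61 and 10.7 CPM in the Ctrl pair and at 23.4 and 32.8 CPM in the WC1 pair, and the ligand Dll1 at 2.82 and 3.57 CPM in the Ctrl pair and at 7.98 and 9.56 CPM in the WC1 pair. Both rose, with log2 fold changes of 1.44 ± 0.19 and 1.22 ± 0.15 (limma adjusted p = 0.019 and 0.017). The ligand Jag2 (1.38), the receptors Notch1 (0.43) and Notch4 (1.06), and the target genes Hey1 (1.16) and Nrarp (1.46) were also called. The ligand Jag1 (0.05) and the targets Hes1 (0.03) and Heyl (-0.12), the last a target found in mural cells, were not called, nor were Notch2 (-0.36), Rbpj (-0.33) and Hey2 (0.49).

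Other genes often used for pericytes moved unevenly. Of 15, 14 were tested and 6 were called higher in limma, with 0 lower and 1 lower at an unadjusted p under 0.05. DESeq2 called 7 higher and 1 lower, and edgeR called 6 higher and 0 lower. The median log2 fold change was 0.35. Art3 stood at 32.3 and 36.6 CPM in the Ctrl pair and at 74.2 and 96.9 CPM in the WC1 pair (log2 fold change 1.28 ± 0.15, limma adjusted p = 0.016). Mcam, an adhesion molecule of mural and endothelial cells, stood at 164 and 192 CPM in the Ctrl pair and at 344 and 430 CPM in the WC1 pair (log2 fold change 1.11 ± 0.14, limma adjusted p = 0.018). Enpep (0.87), Cox4i2 (0.86), Gja4 (1.05), which endothelial cells also make, and Steap4 (0.85), which adipocytes also make, were called as well. Cspg4, the NG2 proteoglycan of pericytes, stood at 53.0 and 55.5 CPM in the Ctrl pair and at 66.1 and 61.4 CPM in the WC1 pair and was not called (log2 fold change 0.23 ± 0.07, limma adjusted p = 0.093). Higd1b (0.29), Ndufa4l2 (0.41), Vtn (-0.03), Foxs1 (0.09), Tbx18 (-0.17), Angpt1 (-0.20) and Anpep (-0.71) were not called either.

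**Figure D3:**
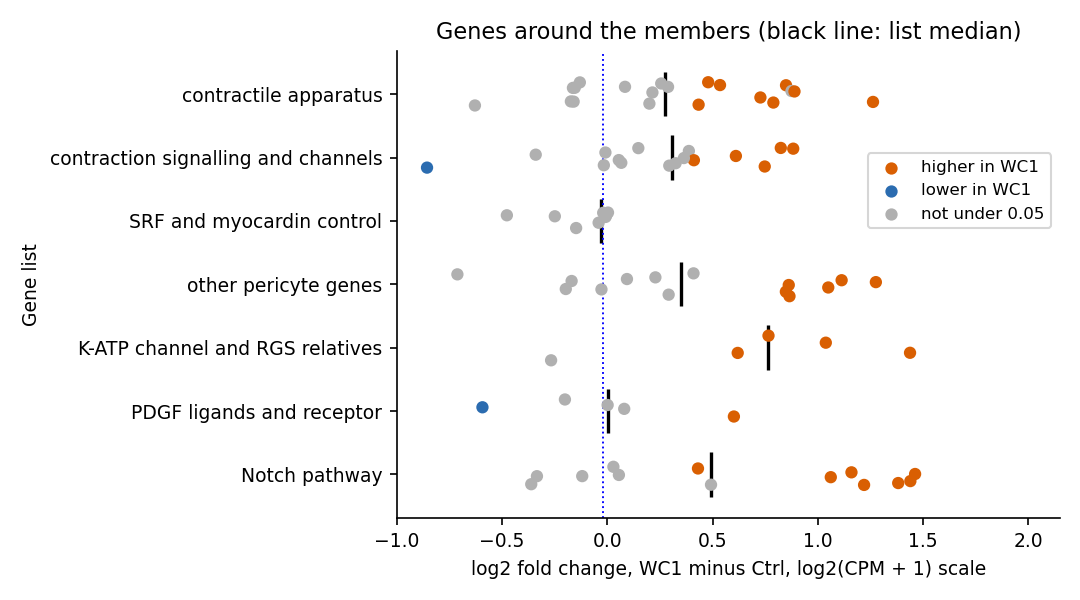
Log2 fold change, WC1 minus Ctrl on the log2(CPM + 1) scale, of the tested genes in each list around the members, where each point is a gene (vertical scatter is only for legibility), orange and blue points had a limma adjusted p under 0.05, black lines are list medians and the dotted line is the median of all tested genes. The 8 genes of SRF and myocardin control hold no coloured point, and the Notch list has 6 points above 1.

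Marker genes of other cell types changed between the groups as well, and these values stand beside all of the results above. Of 8 endothelial markers, 7 were called higher by limma and edgeR and 8 by DESeq2, and their summed level was 284 and 330 TPM in Ctrl and 712 and 939 TPM in WC1. The 6 contractile members summed to 168 and 189 TPM in Ctrl and to 309 and 370 TPM in WC1, and the 4 pericyte members to 82.0 and 78.1 TPM and to 129 and 156 TPM. Divided by the endothelial sum, the contractile members stood at 0.592 and 0.573 in the Ctrl pair and at 0.434 and 0.395 in the WC1 pair, and the pericyte members at 0.289 and 0.236 in the Ctrl pair and at 0.182 and 0.167 in the WC1 pair. Both ratios were lower in WC1 with no overlap. Pdgfrb alone made up 63.8% and 64.9% of the pericyte sum in the Ctrl pair. As means in TPM, the endothelial sum rose 2.69-fold. Rgs5 (3.50-fold) and Kcnj8 (2.79-fold) rose by more than this. The other members had smaller folds: Acta2 2.54, Notch3 2.17, Myh11 2.13, Myl9 1.89, Tagln 1.46, Des 1.26, Pdgfrb 1.14 and Cnn1 0.93. Of 7 adipocyte markers 5 were called higher by limma and 7 by edgeR and DESeq2, and their sum was 20467 and 22237 TPM in Ctrl and 37686 and 48363 TPM in WC1. Of 7 macrophage markers 3 were called lower by limma (6 at an unadjusted p under 0.05) and by edgeR and 6 by DESeq2. All 7 lay below both Ctrl libraries in WC1, as did 36.6% of all tested genes. Their sum was 14687 and 13228 TPM in Ctrl and 8512 and 6120 TPM in WC1. Lyz2 made up most of it, at 11192 and 9774 TPM in Ctrl and 5668 and 4169 TPM in WC1. Fabp4 likewise made up most of the adipocyte sum, at 16027 and 16745 TPM in Ctrl and 28163 and 35241 TPM in WC1. The part of these shifts in the differences of the members was not tested.

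Markers of cells that share genes with mural cells were also read. Of 8 fibroblast markers, 3 (Pdgfra, Dcn and Lum) were called lower, and the sum was 5740 and 5716 TPM in Ctrl and 5400 and 4422 TPM in WC1. Of 6 myofibroblast markers, Postn and Fap were called lower and Tnc and Col12a1 higher. The sum was 736 and 651 TPM in Ctrl and 524 and 388 TPM in WC1. It was set almost entirely by Postn, at 701 and 614 TPM in Ctrl and 477 and 346 TPM in WC1, so it does not describe the list as a whole. The 6 mesothelial markers summed to 108 and 80.6 TPM in Ctrl and to 59.3 and 168 TPM in WC1, so that WC1 1 and WC1 2 lay on opposite sides of Ctrl, and the sum of 5 Schwann cell markers was 3.21 to 3.92 TPM in all libraries. Skeletal muscle markers other than Acta1 were at most 0.92 CPM, and the cardiac genes Myh6, Tnnt2, Nppa and Myl7 were listed at 0 in every library, with Tnni3 at 1.27 to 1.88 CPM. Among genes of genital duct smooth muscle, Hoxd13 was at 0 in every library and Hhip had at most 6 reads, whereas Actg2 and P2rx1 stood between 0.969 and 1.86 CPM. Of 6 epididymal epithelial markers, 5 were at 0 in every library, whereas Adam7 was at 0 in both Ctrl libraries, at 3.02 CPM in WC1 1 and at 0.03 CPM in WC1 2. By comparison, Acta2 stood at 71.7 CPM or more and Myh11 at 21.2 CPM or more in every library.

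**Figure D4:**
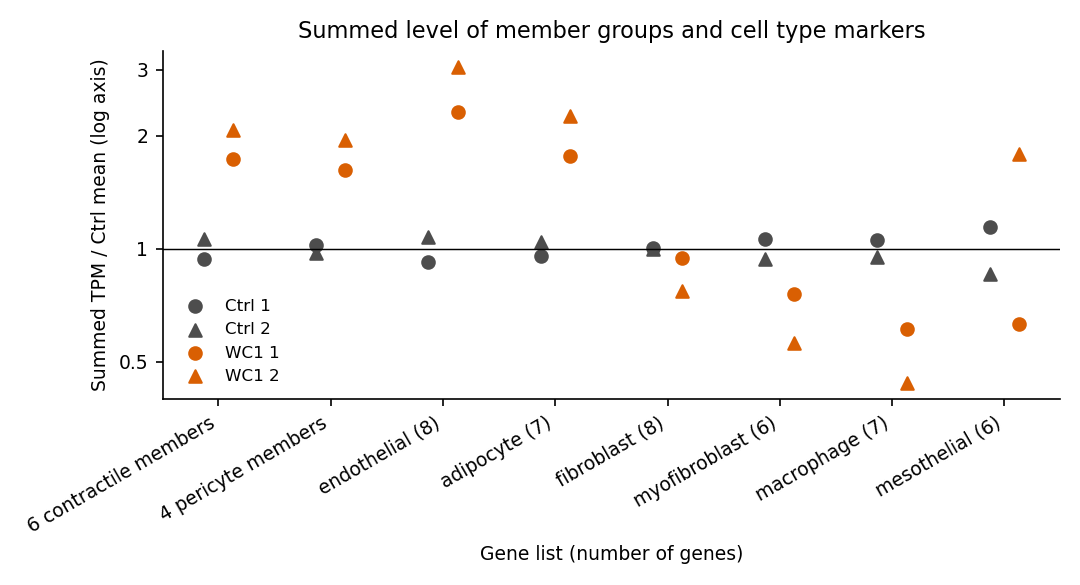
Summed TPM of the member groups and of marker lists in each library, divided by the Ctrl mean of the list, on a log axis, where grey symbols are Ctrl, orange symbols are WC1, and circles and triangles are libraries 1 and 2. The contractile members lie at 1.73 and 2.07 in WC1, the pericyte members at 1.62 and 1.95, the endothelial list at 2.32 and 3.06 and the macrophage list at 0.610 and 0.438. Sums follow their most abundant genes, which were Lyz2 for macrophages, Fabp4 for adipocytes and Postn for myofibroblasts.

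Genes whose pattern over the 4 libraries was most like that of a member were found by the distance between centred log2(CPM + 1) values, among 12564 genes with a mean of at least 1 CPM. For Acta2 these were Mme, Myct1 and Car4 (distances of 0.048 to 0.062), and the closest of the 9 other members was Kcnj8 (0.25). For Myh11 they were Chn1, Nexn and Tmem254a (0.012 to 0.045), and the closest other member was Notch3 (0.11). For Rgs5 they were Tfr2, the endothelial receptor Kdr and Aplnr (0.19 to 0.21), and the closest other member was Kcnj8 (0.48). For Pdgfrb they were Nedd1, Ing4 and Chek2 (0.006 to 0.011), and the closest other member was Des (0.20). The distances rest on 4 libraries and are given as a description. A nearest gene sought among 12564 tends to lie closer than one sought among 9 members, so these distances do not show whether members share a pattern.

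The choice of matrix moved the median of all genes. On TPM the median log2 fold change of all tested genes was 0.10, higher by 0.12 than on CPM, and 77.9% of the called genes were higher in place of 57.0%. Relative to the TPM median the log2 fold changes were 1.62 for Rgs5, 1.23 for Acta2, 1.12 for Kcnj8, 0.93 for Notch3, 0.86 for Myh11, 0.78 for Myl9, 0.43 for Tagln, 0.22 for Des, 0.08 for Pdgfrb and -0.16 for Cnn1, in the same order as on CPM.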

How the data were processed

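Poly(A) RNA of epididymal adipose tissue was made into directional libraries, and 4 libraries were grouped by their titles. The authors deposited 2 gene matrices. In the first, named CPM, they divided reads by a rescaled library size: columns summed to 97.6% to 105% of what exact CPM sum to, so the values are a deposited signal proportional to reads. All values (100%) were whole multiples of 1 read within 0.01 read, which recovered 61465029 to 90965297 reads per library, and 3 reads corresponded to 0.034 to 0.049 CPM. The second matrix holds TPM, deposited by the authors with length correction. The submitters' processing notes name fastp, HISAT2, StringTie and mm10, with no roles. The read counter, its annotation and its use of strand were not given in the sources used here. Gene positions were taken from GENCODE M21 of the same assembly.

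Genes reaching 0.5 CPM in 2 or more libraries were tested (14106, with 10315 removed) on log2(CPM + 1) with limma 3.58.1 in R 4.3.3 (abundance trend, two-sided, Benjamini-Hochberg over all tested genes, threshold 0.05). Such fold changes understate the change of genes of low abundance. With 2 libraries per group, the smallest two-sided p of an exact permutation test on 1 gene is 0.333. Alternatives were other pseudocounts, filters and scalings, the TPM matrix, edgeR 4.0.16 and DESeq2 1.42.0 on recovered reads, a replicate block and each library left out. The fitting code was run on simulated counts with known changes and a common dispersion for all genes, which does not test the calls made in these data. Libraries of 1 group were not duplicates: their chi-square divided by its degrees of freedom was 36.9 (Ctrl) and 93.4 (WC1). The named genes were the 10 members, their listed relatives, the 2 smallest p values in each list around them, and the 3 nearest profiles of Acta2, Myh11, Rgs5 and Pdgfrb. Genes named beyond these were chosen after their values were seen. The members and lists were chosen with earlier results of these data known.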

Additional observations from a re-analysis of the deposited data

How the results depend on the processing

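The direction of all 10 members was kept in each of 149 values under the alternatives, and Cnn1 could not be tested with a mean of at least 5 CPM. The side of the threshold was kept in 131 of them, lost in 14 and gained in 4. Of the 14 losses, 12 came from leaving out a Ctrl library, which leaves a single Ctrl library assumed to vary like WC1, and Myh11 and Myl9 lost their call without a filter. The 4 gains were all of Tagln. With a library left out, the number of members called by limma ranged from 0 to 7 (6 or 7 at an unadjusted p under 0.05), that of the 81 tested genes around them from 0 to 49, compared to 33, and that of all genes from 6 to 5172, compared to 2531. The numbers were 0 members and 6 and 12 genes without Ctrl 1 and Ctrl 2, and the highest came without WC1 1. Without a filter 1320 genes and 17 genes around the members were called, among more genes tested, DESeq2 called 3861 genes, and edgeR on the recovered reads called 2483. The cause of the DESeq2 count was not tested. With the number of the library as a replicate block, 3266 genes were called, and Tagln was the only member whose call differed (limma adjusted p = 0.024), while Fhl2 was gained among the named genes around them (0.031). The labels do not pair the libraries, and the difference between libraries 2 and 1 correlated across genes with r = 0.19 between groups.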
